A study of Mus musculus with 6 samples.

Results

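The measurements describe the SMAD proteins and the SMURF ubiquitin ligases in PA6 cells, a murine stromal line that serves as the feeder layer on which the study differentiated embryonic stem (ES) cells. The names sought on the array were SMAD1 to SMAD7, SMURF1 and SMURF2, and every probe carrying one of these symbols was taken. Of the 9 names, 7 had a probe, with 14 probes among the 45281 of the array. SMAD4 and SMURF2 had no probe under their symbol and were not analysed here. Pure PA6 monolayers, with no ES cells added, were grown to confluence and then kept for 3 h in serum-free medium. This medium held no growth factor in the -GFs group, recombinant FGF2 at 20 ng/ml in the FGF2 group, and recombinant BMP4 at 10 ng/ml in the BMP4 group. Each group had 2 biological replicates and 1 array per replicate, and each replicate contributed 1 well to every group. All wells were from the same line, without any genetic change named in the labels. The comparisons ask how each factor modulates, in the stroma alone, the genes through which TGF beta and BMP signals are read.

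SMAD proteins carry signals of the TGF beta superfamily from the cell surface to the nucleus. Receptors activated by BMPs phosphorylate SMAD1, SMAD5 and SMAD9, while receptors for TGF beta and activin phosphorylate SMAD2 and SMAD3, and the phosphorylated proteins enter the nucleus with SMAD4. SMAD6 and SMAD7 are inhibitory SMADs, and SMURF1 and SMURF2 are ubiquitin ligases that mark SMADs and receptors for degradation. The array reads mRNA, so it does not report phosphorylation or protein. In a bulk RNA sample, fewer cells expressing a gene and less RNA per cell cannot be told apart.

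A probe was called detected when its detection p, against the negative control beads of the same array, was under 0.05. Between 15509 and 16459 probes were detected per array. Of the 14 member probes, 10 were detected on all 6 arrays, 2 on some and 2 on none. Levels are given as log2 of the normalised intensity, and levels of different probes are not comparable with each other. A gene was called modulated at an absolute log2 fold change over 1, that is 2-fold, and an adjusted p under 0.1 in limma, with Benjamini-Hochberg adjustment over the 11872 genes tested. Of the members, 6 entered that test and SMAD7 did not.

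Both treatments left a mark on a well-known target. DUSP6, the ERK phosphatase induced by FGF signals, was 11.7-fold higher with FGF2 (log2 fold change 3.55, SE 0.25, adjusted p 0.00305). ID1, a direct target of BMP-activated SMADs, was 6.84-fold higher with BMP4 (2.77, SE 0.16, adjusted p 0.00945). All 10 stromal markers examined, COL1A1 and PDGFRA among them, were detected on every array. Of 7 ES cell markers only POU5F1 was, while DPPA5A was detected on 3 arrays, ESRRB on 2, and NANOG and SOX2 on none. Of other cell types, 1 of 6 endothelial (TEK), 1 of 5 haematopoietic (LYZ2) and 1 of 4 epithelial markers (CDH1) were detected on every array. KDR, another endothelial marker, was detected on 4 arrays, and CDH5, PECAM1, PTPRC and EPCAM on none. Of 6 adipocyte markers, PPARG was detected on all 6 arrays, LEP on 5, ADIPOQ and CIDEC on 3 each, PLIN1 on 2 and FABP4 on none.

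SMAD3 was the member that FGF2 modulated. SMAD3, the TGF beta and activin effector that binds DNA directly, rose with FGF2 and stood lowest in the BMP4 wells. On its brighter probe the deposited intensity was 4118 and 4303 in the -GFs replicates 1 and 2, 9772 and 12147 with FGF2, and 2468 and 2976 with BMP4. After normalisation the log2 levels were 11.84 and 12.11 in -GFs, 13.29 and 13.64 with FGF2, and 11.41 and 11.48 with BMP4. Both FGF2 arrays lay above and both BMP4 arrays below the -GFs pair, with no overlap between any of the groups. Such a separation was seen for 53.8% of all genes between FGF2 and -GFs, 23.9% between BMP4 and -GFs and 52.8% between FGF2 and BMP4. The mean level was 11.98 ± 0.19 in -GFs, 13.46 ± 0.25 with FGF2 and 11.44 ± 0.04 with BMP4 (SD, n = 2 in each).

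Against -GFs, SMAD3 was 2.81-fold higher with FGF2 (log2 fold change 1.49, SE 0.18, 95% interval 1.06 to 1.92, adjusted p 0.0103). The difference within a replicate was 1.45 in replicate 1 and 1.53 in replicate 2. With the replicate as a block in the model the adjusted p was 4.24e-07. It was the only one of the 6 members called, against 3.53% of all genes tested, and its fold change was the 90th highest of 11872. Without the FGF2 array of replicate 2 the difference was 1.31 and the call was lost. That fit left a lone FGF2 array, and fewer of all genes passed in it as well.

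A second, dimmer SMAD3 probe moved the same way. Its deposited intensity was 896 and 645 in -GFs, 2561 and 2287 with FGF2, and 592 and 464 with BMP4. On the log2 scale the levels were 9.60 and 9.42 in -GFs, 11.32 and 11.22 with FGF2, and 9.28 and 8.85 with BMP4, again with no overlap between the groups. The FGF2 difference on this probe was 1.76 (SE 0.19, adjusted p 0.00826 when each of the 16111 detected probes was tested), a 3.39-fold rise. Both probes read the same 6 RNA samples and are not independent replicates.

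**Figure D1:**
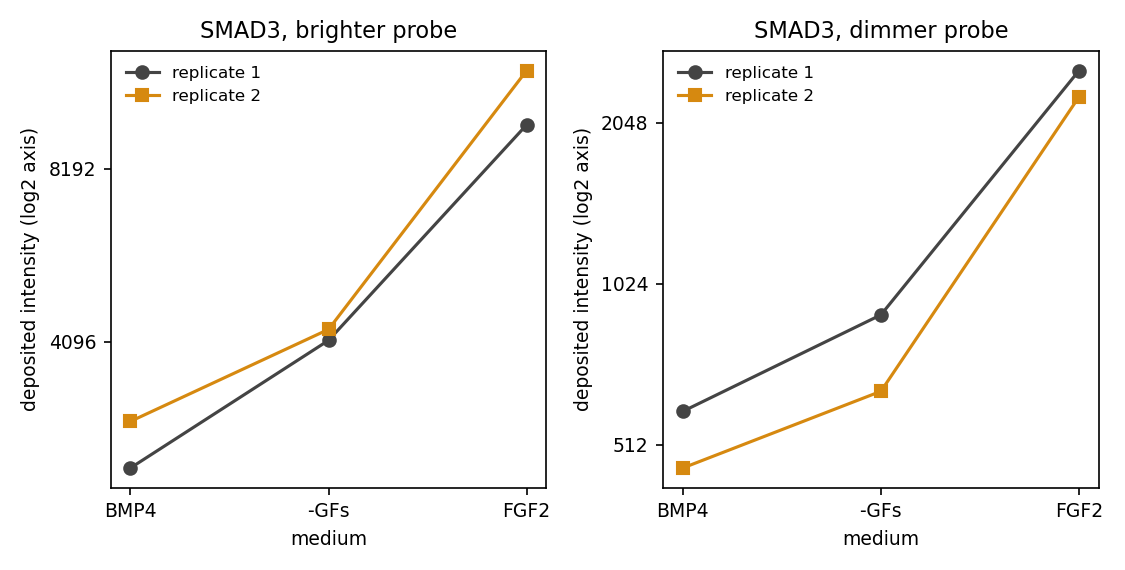
Deposited SMAD3 intensity (log2 axis) in BMP4, -GFs and FGF2 medium for its brighter probe (left) and dimmer probe (right). Each point is 1 array and lines join the wells of a replicate. In both replicates and on both probes the order is BMP4, then -GFs, then FGF2, from 2468 to 12147 on the brighter probe.

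With BMP4, SMAD3 was at 0.69 times its -GFs level (log2 fold change -0.53, SE 0.18, 95% interval -0.96 to -0.10). The difference was -0.43 in replicate 1 and -0.63 in replicate 2, and on the dimmer probe -0.31 and -0.57. The unadjusted p was 0.0227, but the adjusted p was 0.999, and 0.228 with the replicate block. Its value was the 42nd lowest of 11872, and it did not pass the test across all genes.

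Between the factors, SMAD3 was 4.06-fold higher with FGF2 than with BMP4 (log2 fold change 2.02, SE 0.18, 95% interval 1.59 to 2.45, adjusted p 0.00465), and on the dimmer probe the difference was 2.21. SMAD3 was again the only member called, against 3.07% of all genes, and its value was the 36th highest of 11872.

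SMAD2, the other SMAD of the TGF beta and activin branch, stayed near its -GFs level. Its log2 level was 9.46 and 9.64 in -GFs, 9.61 and 9.74 with FGF2, and 9.59 and 9.52 with BMP4. Both treated groups overlapped the -GFs pair. The difference was 0.12 with FGF2 (95% interval -0.23 to 0.48, adjusted p 0.67) and 0.01 with BMP4 (-0.35 to 0.36, adjusted p 0.999), so that a 2-fold change lay outside both intervals.

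SMAD1 and SMAD5, the BMP branch, did not pass the test in any comparison. SMAD1 had 2 probes detected on all arrays. The brighter one was at 9.66 and 9.61 in -GFs, 10.11 and 9.79 with FGF2, and 9.71 and 9.67 with BMP4. The other one was at 9.55 and 9.41 in -GFs, 10.05 and 9.89 with FGF2, and 9.72 and 9.76 with BMP4. On both probes the FGF2 arrays lay above the -GFs pair without overlap, a separation that 53.8% of all genes showed in this comparison.

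The FGF2 difference of SMAD1 was 0.32 on the brighter probe (SE 0.16, 95% interval -0.07 to 0.70, adjusted p 0.298) and 0.49 on the other (SE 0.15, adjusted p 0.117). With the replicate block and every probe tested, the second probe passed at an adjusted p of 0.0142, below the fold threshold, while the first was at 0.106. Of all detected probes, 36.6% passed under that model. The BMP4 differences of SMAD1 were 0.06 and 0.26 on these probes, and neither passed. A further pair of SMAD1 probes was close to background, 1 detected on 2 arrays and 1 on none, and a probe under MADH1, an older name of SMAD1 outside the symbols sought, was detected on none.

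SMAD5 was at 10.08 and 9.75 in -GFs, 10.32 and 10.05 with FGF2, and 9.98 and 10.02 with BMP4. The groups overlapped in both comparisons with -GFs. The difference was 0.27 with FGF2 (95% interval -0.15 to 0.70, adjusted p 0.407) and 0.09 with BMP4 (-0.34 to 0.51, adjusted p 0.999). A dimmer SMAD5 probe was detected on both FGF2 arrays, on 1 BMP4 array and on neither -GFs array, and no fold change is given for it. SMAD9, the remaining BMP-activated SMAD, was detected on no array.

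**Figure D2:**
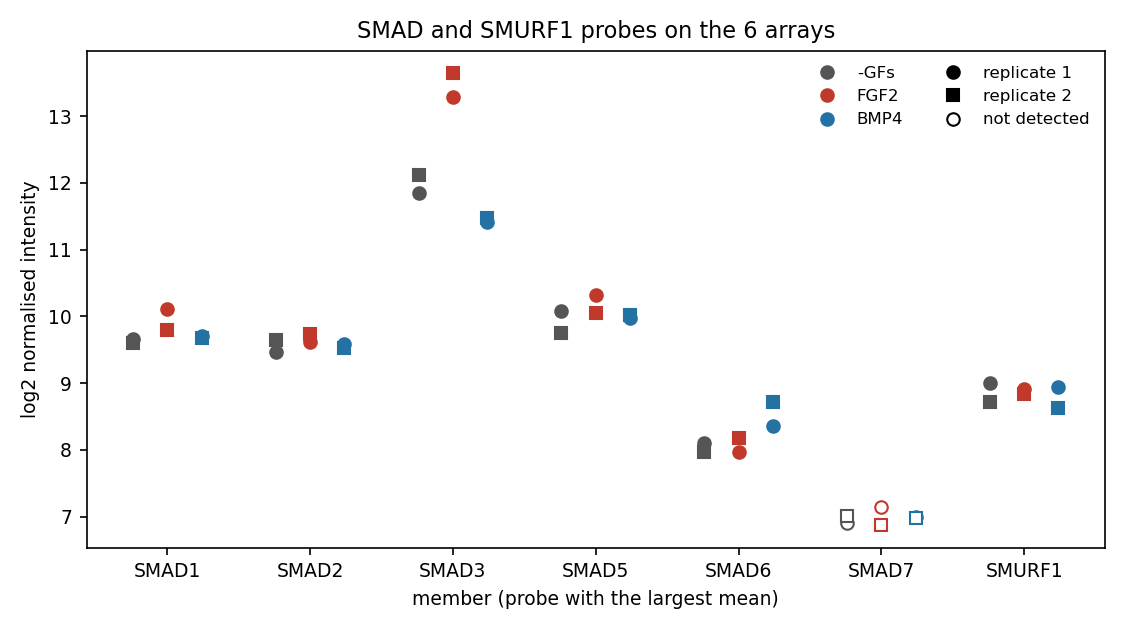
Log2 normalised intensity of the 7 members with a probe, on the 6 arrays, for the probe with the largest mean. Colours mark the medium, circles replicate 1, squares replicate 2, and open symbols arrays on which the probe was not detected. SMAD3 separates into 3 levels, SMAD6 is highest in the BMP4 arrays, and the groups of SMAD2, SMAD5 and SMURF1 overlap with -GFs.

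SMAD6, the inhibitory SMAD known as a feedback target of BMP signals, was highest in the BMP4 wells, but the increase did not pass the test. Its single probe was detected on all arrays, at 8.11 and 7.97 in -GFs, 7.96 and 8.18 with FGF2, and 8.37 and 8.72 with BMP4. Both BMP4 arrays lay above the 4 others, a separation from -GFs that 23.9% of all genes showed. The mean was 8.04 ± 0.10 in -GFs, 8.07 ± 0.15 with FGF2 and 8.54 ± 0.25 with BMP4 (SD, n = 2 in each).

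The BMP4 difference of SMAD6 was 0.50 (SE 0.18, 95% interval 0.07 to 0.93, unadjusted p 0.0285, adjusted p 0.999), a 1.42-fold higher level. It was 0.25 in replicate 1 and 0.75 in replicate 2, and its rank was the 57th highest of 11872. The adjusted p was 0.312 with the replicate block. The probe was close to background, and with a background correction (neqc) the difference was 0.86, still short of the threshold with an adjusted p of 1. With FGF2 the difference from -GFs was 0.03 (95% interval -0.40 to 0.46).

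Between the factors SMAD6 was lower with FGF2 than with BMP4 by -0.47 on the log2 scale (SE 0.18, adjusted p 0.201). With the replicate block the adjusted p was 0.0261, so that 2 members, SMAD3 and SMAD6, passed the adjusted p there in place of 1, against 34.2% of all genes in place of 9.06%. SMAD6 remained below the fold threshold in both models.

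SMAD7, the inhibitory SMAD that acts on TGF beta and BMP receptors alike, was not detected on any array. Its values lay between 6.87 and 7.14 on all 6 arrays, below the dimmest detected probes, which stood between 7.56 and 7.62. Neither a level nor a fold change is given for it.

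SMURF1, the ligase that targets the BMP-branch SMADs, had 3 probes, each detected on all arrays. The brightest was at 9.01 and 8.72 in -GFs, 8.91 and 8.84 with FGF2, and 8.94 and 8.63 with BMP4, and all groups overlapped. The difference was 0.01 with FGF2 (95% interval -0.42 to 0.44) and -0.08 with BMP4 (-0.51 to 0.35). Across the 3 probes the differences ranged from 0.01 to 0.14 with FGF2 and from -0.08 to 0.11 with BMP4, and none passed the test.

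Over the 6 members tested the median log2 fold change was 0.20 with FGF2, against -0.02 over all genes, and 0.03 with BMP4, against 0.00 over all genes. With BMP4 no member passed limma's adjusted p, while 0.00842% of all genes did, a single gene, ID1. At an unadjusted p under 0.05 the members were SMAD3 and SMAD6, and 1.81% of all genes were. No member was called with the replicate block either, where 0.0842% of genes were called. For 1 gene and 2 arrays a group, the smallest two-sided p an exact permutation test allows is 0.333, so each p above rests on the spread that limma shares across genes.

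**Figure D3:**
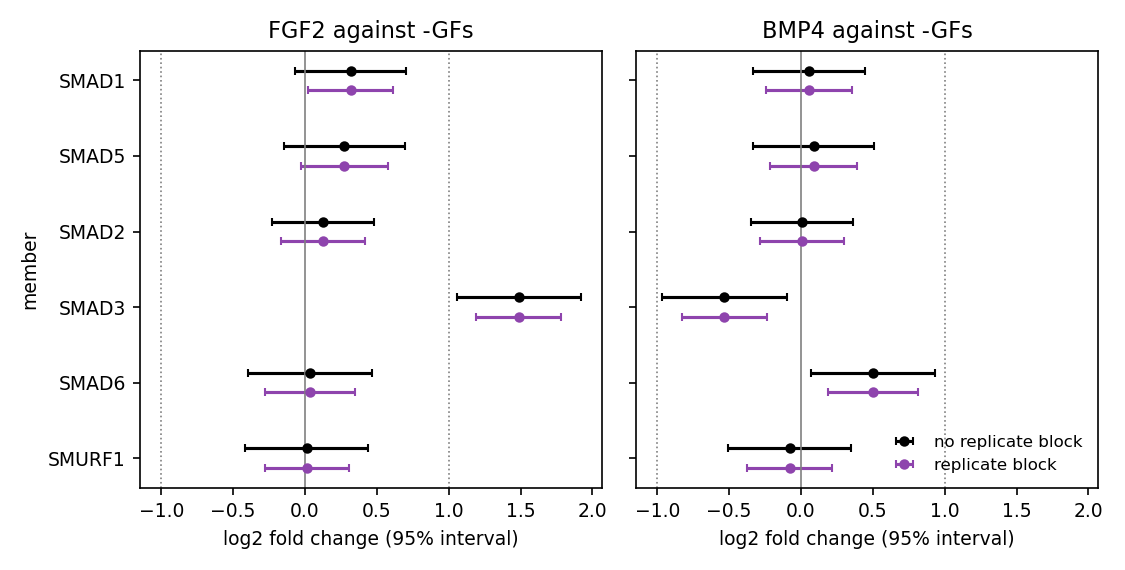
Log2 fold change of the 6 members tested, with 95% intervals, for FGF2 (left) and BMP4 (right) against -GFs, without and with the replicate block. Dotted lines mark the 2-fold threshold in either direction. Only the SMAD3 interval with FGF2, 1.06 to 1.92, lies wholly past a dotted line, and with BMP4 the SMAD3 and SMAD6 intervals lie on opposite sides of 0.

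The start regions of SMAD3 and SMAD6, the 2 members with the largest differences from -GFs in either medium, are shown because SMAD proteins bind short DNA boxes and both genes lie near each other on chromosome 9. In the RefSeq annotation of GRCm38.p6, 5 genes lie between them, 0 of which code for a protein. Each sequence runs on the minus strand, 5′ to 3′, from 250 bases before to 25 bases after the annotated start, and capitals mark the short SMAD box, GTCT or its reverse complement AGAC.
Smad3, chr9:63757970-63758244: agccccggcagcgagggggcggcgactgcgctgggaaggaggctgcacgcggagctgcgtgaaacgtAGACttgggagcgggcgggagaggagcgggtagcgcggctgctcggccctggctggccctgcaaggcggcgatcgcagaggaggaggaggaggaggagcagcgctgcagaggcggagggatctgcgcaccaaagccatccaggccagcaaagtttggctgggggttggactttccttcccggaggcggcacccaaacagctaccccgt
Smad6, chr9:64022035-64022309: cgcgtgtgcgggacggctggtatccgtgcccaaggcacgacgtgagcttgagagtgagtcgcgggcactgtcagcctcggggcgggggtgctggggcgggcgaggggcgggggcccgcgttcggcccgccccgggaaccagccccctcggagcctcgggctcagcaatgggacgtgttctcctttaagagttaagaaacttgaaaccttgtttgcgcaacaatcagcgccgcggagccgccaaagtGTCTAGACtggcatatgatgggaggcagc

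Searched on both strands from 250 bases before to 50 bases after the start, Smad6 held the palindromic SMAD box GTCTAGAC once, across the start itself from position -4 to position 4. That box contains GTCT followed by AGAC, and it occurred in 70 of 32851 mouse promoters of this length, or 0.213%. Smad3 held no palindromic box and 1 short box, at -183 to -180, and 88.0% of promoters held at least 1 short box. Neither promoter held the GC-rich SMAD box GGCGCC, the AP-1 site TGANTCA or the EGR site GCGNGGGCG, which occurred in 11.9%, 7.81% and 5.55% of promoters. The GC content was 67.7% for Smad3 and 66.3% for Smad6. Promoters were matched for 6 of the 9 members, but the boxes were examined by gene only for Smad3 and Smad6. Whether the palindromic box is particular to Smad6 among the members was thus not examined. A match of letters is a description, not a binding site.

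The 5 genes whose log2 levels followed SMAD3 most closely over the 6 arrays were ZMYM3, ITPRIP, SCL0001379.1_70 (an array name without a current symbol), TAF5 and SPSB1, with Pearson's r from 0.995 to 0.997. SPSB1, an adaptor of a ubiquitin ligase, had an FGF2 difference of 1.46 and a BMP4 difference of -0.39, close in size to those of SMAD3. ZMYM3 had 0.39 and -0.17. The 6 points share 3 media and 2 replicates, and 577 genes had an r over 0.9 with SMAD3, so that such likeness was common.

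The wider SMAD pathway was read from lists of receptors, anchors and partners, corepressors, other ligases, deubiquitinases, phosphatases and target genes, 65 genes tested in all. With FGF2 9 of them rose and 5 fell at an adjusted p under 0.1, or 21.5%, against 11.8% of all genes. The lists were drawn up with earlier results of these data known, so these shares are not an independent comparison. With the replicate block the counts were 16 and 12, or 43.1%, against 37.7% of all genes. The count of 14 fell whichever array was left out, most without the FGF2 array of replicate 2. Such a fit leaves a lone array in the group concerned, and the number passing over all genes fell as well. Over the 65 genes the median log2 fold change was 0.07, against -0.02 over all genes.

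Among 16 TGF beta-SMAD target genes tested, 6 rose with FGF2, 1 fell and the others did not pass, with a median of 0.22. Those called were BHLHB2, a transcriptional repressor of the clock network (log2 fold change 2.49, adjusted p 0.00459), JUNB, an AP-1 subunit (2.08, 0.0227), CTGF, a matricellular protein (1.57, 0.0621), SNAI1, a repressor of epithelial genes (1.52, 0.01), and TGFB1, the ligand itself (1.14, 0.0258). TGFBI rose by 0.58 (adjusted p 0.0969), and TSC22D1 fell by 0.94 (adjusted p 0.0223). Over all genes 11.8% passed with FGF2 and 3.53% were called. With the replicate block 7 of these targets rose and 3 fell, where 37.7% of all genes passed. The 3 were TSC22D1, PMEPA1 (log2 fold change -0.42) and COL1A1 (-0.37). Several of these genes, JUNB and SNAI1 among them, are also known to respond to ERK signals. The signal behind their change was not tested. The list was drawn up with earlier results of these data known.

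TGFB1 was at 9.66 and 9.89 in -GFs, 10.70 and 11.14 with FGF2, and 9.40 and 9.59 with BMP4. Its FGF2 arrays stood above and its BMP4 arrays below the -GFs pair, as those of SMAD3 did. Over all genes 53.8% separated from -GFs with FGF2 and 23.9% with BMP4. With BMP4 the TGFB1 gap was narrow, between 9.59 and 9.66, and the difference was -0.28 (adjusted p 0.999). CTGF was at 9.31 and 8.41 in -GFs, 10.91 and 9.96 with FGF2, and 9.90 and 10.05 with BMP4. Its replicates differed by most of a log2 unit in -GFs and with FGF2, but not with BMP4. The CTGF difference between BMP4 and -GFs was larger in replicate 2, where the -GFs level was lower.

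Among 8 BMP-SMAD target genes tested, GATA2 (0.96) and HEY1 (0.88) rose with FGF2, and ID2 fell below detection on both FGF2 arrays. With the lowest detected level in place of its FGF2 values, ID2 was at least 1.39-fold lower. Its adjusted p of 0.055 is limma's for the measured difference of -0.71. The list's median was -0.12. With BMP4 the median was 1.23, against 0.00 over all genes, and 7 of the 8 values were positive. ID1 alone passed, and it did not pass without either -GFs array or without the BMP4 array of replicate 1. With the replicate block 6 passed, ID1 to ID4, ATOH8 and HEY1, against 0.227% of all genes, but with the block and neqc background correction ID1 was again the only one.

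With the replicate block CTGF was the 1 TGF beta-SMAD target that passed with BMP4 (log2 fold change 1.11, adjusted p 0.0233, against 0.999 without the block), and it did not pass with the block and neqc. Over all lists 7 genes passed with BMP4 under the block, 1 without it and 1 with the block and neqc, against 0.227% of all genes under the block and 0.00842% without it. No receptor, anchor, corepressor, other ligase, deubiquitinase or phosphatase passed with BMP4 in either model.

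Of the 10 receptors and co-receptors tested, none passed with FGF2, and 5 did with the replicate block, where 37.7% of all genes passed. TGFBR1, the type I receptor that phosphorylates SMAD2 and SMAD3, is named after its values were seen. Its levels were 11.47 and 10.30 in -GFs, 12.80 and 11.80 with FGF2, and 11.55 and 10.44 with BMP4. Replicate 1 lay above replicate 2 by about a log2 unit in every medium, while the FGF2 difference was similar within each. The difference was 1.42 (SE 0.53, adjusted p 0.168), and with the block the adjusted p was 5.63e-07. TGFBR1 was thus called modulated with the block, where 469 of 11872 genes were called, and not without it.

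Among 7 corepressors tested, TGIF1, a homeodomain repressor that binds SMAD2 and SMAD3, rose by 0.73 with FGF2 (adjusted p 0.0417), and TOB2, an antiproliferative protein, fell by 0.77 (adjusted p 0.0436). Among 10 other ligases and adaptors, WWP2, a relative of the SMURFs, fell by 0.67 (adjusted p 0.0578). Among 5 phosphatases, CTDSPL fell by 0.52 (adjusted p 0.0897). None of the 5 anchors and partners and none of the 4 deubiquitinases tested passed with FGF2 in either model.

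The SMAD3 call with FGF2 stood under 23 of 25 other ways of processing the data, and its log2 fold change over all 25 lay between 1.31 and 1.66. It was lost without the FGF2 array of replicate 2 and with the methods' unpaired test adjusted by Benjamini-Hochberg. Under that adjusted test 0 of 11872 genes passed, so its loss there is not particular to SMAD3. The lower SMAD3 value with BMP4 kept its sign under all 25, between -0.67 and -0.40, and passed under none. The higher SMAD6 value with BMP4 also kept its sign under all 25, between 0.32 and 0.86, and passed under none. Its lowest value was that without the BMP4 array of replicate 2. The near-zero FGF2 differences of SMAD6 and SMURF1 changed sign under 4 of the 25 each.

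**Figure D4:**
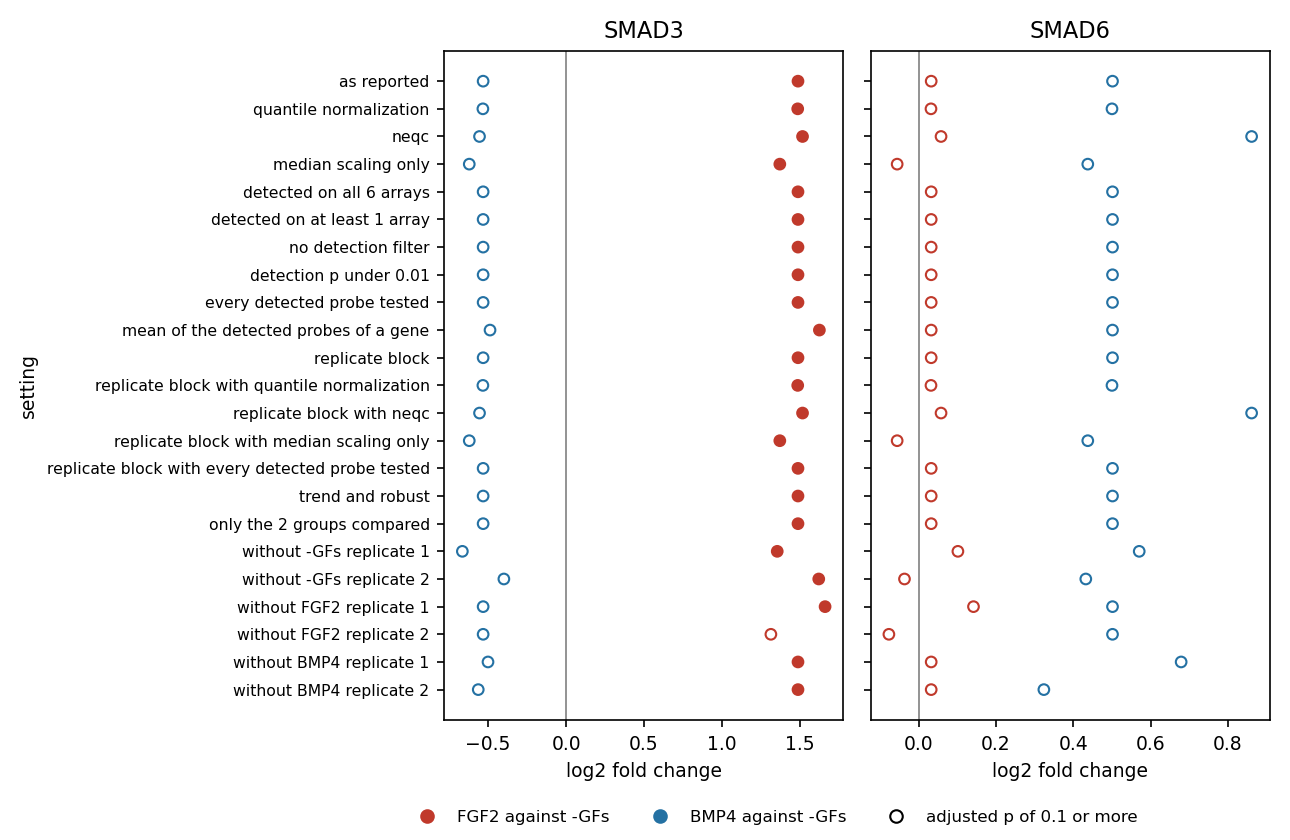
Log2 fold change of SMAD3 (left) and SMAD6 (right) against -GFs as reported and under the limma settings run, the methods' t-test not being drawn. Filled points had an adjusted p under 0.1 and open points did not. Among the settings drawn, the SMAD3 point with FGF2 is open without the FGF2 array of replicate 2, at 1.31, and filled in the others, and every BMP4 point is open.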

How the data were processed

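Total RNA of 6 PA6 wells was hybridised to Illumina MouseWG-6 v2.0 BeadChips, 1 array per well. The values that the authors deposited are intensities, the mean bead brightness of each probe on a linear scale and not normalised between arrays, together with the detection p-value of every probe. Per the labels they came from GenomeStudio 2011.01, and the genome build is not given in the sources used here. The table also held 9 columns of per-sample values and 6 leftover lines, which were not used. Values under no heading stood on 2045 lines and were not used either. For arrays the precision is limited by their number. The normalisation named in the methods, by cubic spline, was rebuilt in R 4.3.3 from 452 quantiles of each array, and values were converted to log2. Normalisation fixes the overall distribution of each array, so a change common to most genes would not be seen. A probe had to be detected (p under 0.05) on both arrays of some group, which kept 16111 probes, and the probe of largest mean stood for its gene, giving 11872 genes. limma 3.58.1 (lmFit, eBayes) was fitted to all 6 arrays in 3 groups, with 3 residual degrees of freedom. P-values were adjusted by Benjamini-Hochberg over all 11872 genes, or over all 16111 probes where every probe is said to be tested. The scripts were tested on simulated data. 

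The labels state that each biological replicate comprised 1 well per medium, so the replicate number pairs the samples. Deviations of same-numbered arrays from their group means had a correlation of 0.602 (-GFs with FGF2), 0.741 (-GFs with BMP4) and 0.579 (FGF2 with BMP4) over 11872 genes, and the replicate block was run as an alternative, with 2 residual degrees of freedom. Members and gene lists were chosen with earlier results of these data known. The genes named are all members, every list gene called modulated against -GFs or otherwise the pair per list with the largest fold change that passed, DUSP6 and ID1 as checks, and the 5 genes most like a called member. TGFBR1, GATA2, HEY1, ID2, TGFBI, TSC22D1, and those passing with the block were named after their values were seen. Of 30854 gene names, 16125 equal a current symbol in RefSeq (GRCm38.p6), which served for names and promoter sequences only. The other settings were other normalisations, detection filters and probe choices, the replicate block, a limma trend with robust fitting, only the groups compared, the methods' t-test, a stricter threshold and leaving out each array.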

Additional observations from a re-analysis of the deposited data

How the results depend on the processing

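Each count was recomputed under 25 alternatives. Of the 6 members, 1 was called and passed with FGF2 against -GFs. That count was 0 with the methods' t-test once adjusted by Benjamini-Hochberg and, leaving out 1 array at a time, between 0 and 1, with 0 without the FGF2 array of replicate 2. Against BMP4 the count called was 1, and 0 with the adjusted t-test, which 0 of 11872 genes passed here or with FGF2 against -GFs. The count passing the adjusted p there was 1, 0 with the adjusted t-test, and 2 with the replicate block, alone or with quantile normalisation, neqc, median scaling or every probe. The replicate block changed no other member's side of the threshold, except the second SMAD1 probe with FGF2. No member was called or passed with BMP4 against -GFs in any alternative.

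Pathway list genes passing with FGF2 numbered 14. They numbered 28 with the replicate block, 27 with the block and quantile normalisation, 22 with the block and neqc, 29 with the block and median scaling, 28 with the block and every probe, 0 with the adjusted t-test and 9 at an adjusted p under 0.05. Leaving out 1 array at a time gave 1 to 13, the lowest without the FGF2 array of replicate 2. With BMP4 1 passed. The number was 2 with probes detected on at least 1 array, with no detection filter and with trend and robust fitting, 7 with the block alone or with quantile normalisation, median scaling or every probe but 1 with the block and neqc, 0 with the adjusted t-test and 6 with the t-test at an unadjusted p under 0.05. Leaving out 1 array at a time gave 0 to 1, with 0 without either -GFs array and without the BMP4 array of replicate 1. The cause was not tested. SMAD6 with BMP4 moved from 0.50 to 0.86 with neqc, and its difference between the factors from -0.47 to -0.80.

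A group held 2 arrays, so an array left out leaves a lone one that is assumed to vary like the others. The SMAD6 probe and the dimmer SMAD5 probe lay close to background, where the scale compresses differences, and SMAD7 could not be measured.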
